A study of Mus musculus with 6 samples.

Results

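A set of 10 genes of Wnt signalling was followed across 6 libraries of calvaria-derived cells, the bone-forming cells that grow out of the skull vault of mice. The genes were taken as the rows of the deposited count table whose Ensembl identifier carries the symbol of a listed Wnt ligand (Wnt4, Wnt5a, Wnt10b, Wnt11), R-spondin ligand (Rspo2, Rspo3), nuclear effector (Lef1, Tcf7) or feedback target (Axin2, Nkd1). All 10 were found among 57180 rows. The 3 wt libraries came from C57BL/6 cells with the genotype WT. The 3 libraries labelled FasL KO came from B6Smn.C3-Faslgld/J cells, homozygous for gld, a mutation of the gene for Fas ligand, and are called gld here. Both were kept in MEM alpha with 10% serum, ascorbate and 4 mM β-glycerophosphate, which drives bone cell differentiation. The growth protocol given with all 6 samples describes Fas ligand added to gld cells on day 14 and 72 h of further culture, with wt and untreated gld cells kept alongside. No sample is labelled as given Fas ligand. The sources used here do not give the age of the mice or whether the libraries of a group are separate animals or cultures. The p-values therefore reflect the spread among these 6 libraries, part of which may be technical.

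Wnt proteins are lipid-modified ligands that need the carrier Wntless to leave the cell and that bind Frizzled receptors. In the canonical branch, binding together with the co-receptors Lrp5 and Lrp6 stabilises β-catenin, which enters the nucleus and works through the TCF/LEF factors. Axin2, Nkd1, Znrf3 and Lgr5 are among the genes that this branch induces, and Axin2, Nkd1 and Znrf3 dampen it in turn. R-spondins strengthen the signal: they bind Lgr4, Lgr5 or Lgr6 and remove the ligases Znrf3 and Rnf43, which would otherwise clear Frizzled from the cell surface. In bone, canonical Wnt signalling favours osteoblast formation, and Wnt5a is the best known ligand of the β-catenin-independent branch.

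The libraries held 2011173 to 3105322 counts in wt and 4048258 to 5245546 in gld, and gld had the deeper libraries throughout. Fasl itself (GRCm38 chromosome 1, 161780689 to 161788495) was listed at 0 in all 6 libraries and so checks neither label. None of the 10 genes lies on chromosome 1. As for the labelled cell type, the collagen genes Col1a1 and Col1a2, among 11 osteoblast markers, were high in every library, and higher in gld. Col1a1 stood at 6294 to 9473 CPM in wt and 26090 to 29250 CPM in gld. Col1a2 stood at 9835 to 14250 CPM in wt and 35240 to 38320 CPM in gld. Their log2 fold changes, gld minus wt, were 1.83 and 1.68 (edgeR adjusted p of 9.11e-08 and 1.67e-07). The osteoblast transcription factor gene Sp7 was at 0 in the 3 wt libraries and gld 1, and the osteocalcin gene Bglap had 1 count over all 6. Macrophage genes appeared in gld. Of 14 markers 9 could be tested and 8 were called higher, beside 9.74% of all tested genes. All 8 but the lysozyme gene Lyz2 could be tested only through their counts in gld, so they could only be called higher. Among the 8, C1qb, C1qc, Marco and C1qa were at 0 to 1.58 CPM in each wt library and at 63.8 to 296 CPM in each gld library. Cd14 was lower. The summed level of the list was 256 to 432 CPM for the wt libraries, most of it Cd14 (237 to 308 CPM), and 2306, 3679 and 6394 CPM for gld 1, gld 2 and gld 3, most of it the lysozyme gene Lyz2 (1782, 2941 and 4984 CPM). The T cell list summed to 24.0 to 60.5 CPM for wt and 0 to 2.90 CPM for gld, carried by the receptor constant gene Trbc2 (24.0 to 57.7 CPM for wt), and 9 of its 12 genes were at 0 in all libraries. The macrophage genes Csf1r, Tyrobp, Fcer1g and Adgre1 were listed at 0 in every library, as were the T cell genes Cd3d, Cd3e and Cd3g. The last 300 exonic bases of Tyrobp, Fcer1g, Adgre1 and Cd3g are wholly or partly shared by several annotated transcripts. Those of Csf1r, Cd3d and Cd3e lie in 1 transcript. The part of such ends in these zeros was not tested. In bulk RNA, fewer cells of a type and less RNA per cell cannot be told apart.

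Promoter sequence from RefSeq (GRCm38.p6) was matched by symbol for 7 of the 10 genes, in 12 windows from 250 bases before to 50 bases after a transcription start. The sequences of 3 are shown up to the first annotated start: Wnt4 because it is the 1 gene with an entry that changed between the groups, Wnt11 because it is the only 1 of the 7 with a match to the TCF/LEF core motif, and Axin2 because it is the reference target of the canonical branch. The search was for CTTTGAT and CTTTGAA on both strands, and capitals mark a match. The sequences run 5′ to 3′ on the plus strand.
Wnt4, chr4:137277385-137277488: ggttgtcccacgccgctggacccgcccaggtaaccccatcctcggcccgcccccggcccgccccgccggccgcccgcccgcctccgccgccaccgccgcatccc
Wnt11, chr7:98834862-98835111: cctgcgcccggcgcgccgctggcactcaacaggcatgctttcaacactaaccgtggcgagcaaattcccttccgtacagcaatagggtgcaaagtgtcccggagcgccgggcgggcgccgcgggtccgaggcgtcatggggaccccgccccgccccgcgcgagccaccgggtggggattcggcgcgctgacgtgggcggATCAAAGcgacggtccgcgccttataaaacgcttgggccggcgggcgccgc
Axin2, chr11:108920099-108920348: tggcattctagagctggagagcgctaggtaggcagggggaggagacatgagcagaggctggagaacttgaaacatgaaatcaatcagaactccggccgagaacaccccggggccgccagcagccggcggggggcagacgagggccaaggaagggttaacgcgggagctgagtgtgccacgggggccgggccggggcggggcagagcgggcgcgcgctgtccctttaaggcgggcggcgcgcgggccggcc
The match in the Wnt11 window is CTTTGAT on the minus strand and begins 51 bases before the start. Of the 12 windows 1 holds either motif, and of 32817 windows over all genes 8.65% do. The Wnt4 window as a whole is 84.3% G and C, against 71.3% for that of Wnt11 and 70.0% for that of Axin2.

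Of the 10 genes 2 rose in gld, the ligand genes Rspo3 and Wnt4. Wnt5a and Tcf7 could be tested and did not pass, Wnt10b, Wnt11, Axin2 and Nkd1 had too few counts to be tested, and Rspo2 and Lef1 were listed at 0 in all 6 libraries. A gene was tested where it had about 10 counts or more in 3 libraries. Testing used the quasi-likelihood method of edgeR on the whole table with the Benjamini-Hochberg correction, and a gene was called below an adjusted p of 0.05. Of the 8692 genes tested over the table, 17.4% were called, 9.74% higher and 7.69% lower in gld, and the 2 called among the 4 that could be tested stand beside that background. The counts called in each gene list stand beside the same background. For both the gld libraries lay wholly apart from wt, as the groups did in 33.3% of all tested genes. Levels are given in CPM, counts scaled to the TMM library size, and differences in log2, gld minus wt.

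**Figure D1:**
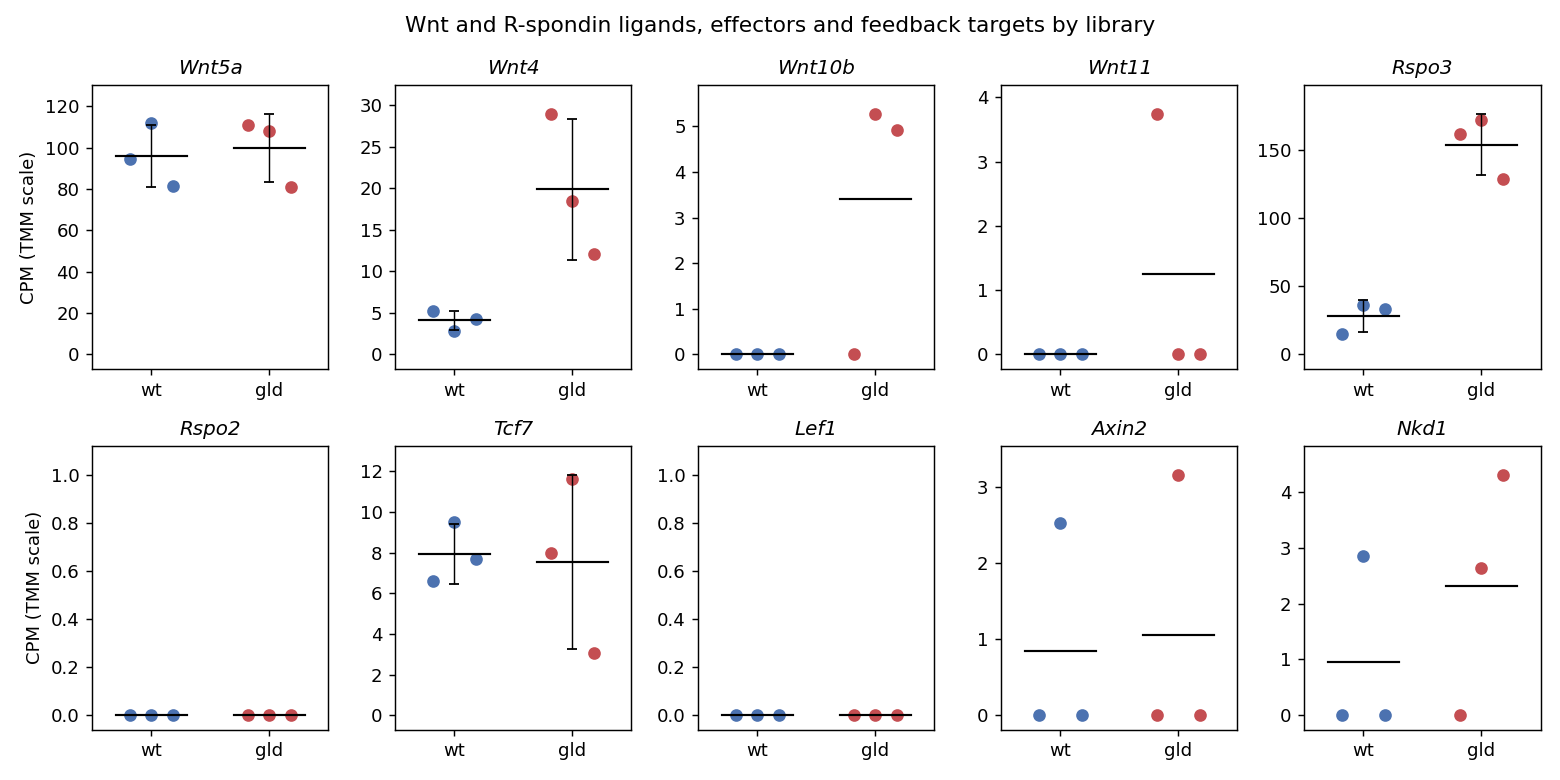
Level of each of the 10 genes in CPM (TMM scale, linear axes of different range) in the 3 wt and 3 gld libraries. Points from left to right are replicates 1 to 3, the line is the group mean, and bars (tested genes only) are SD. Rspo3 and Wnt4 are the 2 genes whose gld points all lie above the wt points.

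Rspo3 encodes R-spondin 3, a secreted amplifier of Wnt signals (GRCm38 chromosome 10, 29452416 to 29535867, minus strand). The wt libraries held 32, 115 and 109 counts of it and the gld libraries 647, 652 and 627, which is 15.04, 36.4 and 33.5 CPM against 161, 172 and 129 CPM. The groups did not overlap, and wt 1 was the lowest of the wt libraries. The mean went from 28.3 ± 11.6 to 154 ± 22.5 CPM (SD, n = 3), a log2 fold change of 2.42 ± 0.27 (SE), with an edgeR adjusted p = 1.51e-05. The call held in each of 13 other fits, where the fold change ran from 2.14 to 2.63.

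No other R-spondin gene passed the test. Rspo1, named after its value was seen, stood at 60.2, 107 and 76.8 CPM in the wt libraries and at 49.6, 61.2 and 58.7 CPM in the gld libraries, with a log2 fold change of −0.53 ± 0.23 (SE, edgeR adjusted p = 0.156) and a 95% interval of −1.03 to −0.03. The groups overlapped in 1 library, wt 1, which lay below gld 2. With library size alone as the scale it passed, at −0.68 and an edgeR adjusted p = 0.0486. Rspo2, whose last 300 exonic bases are shared by several annotated transcripts, was listed at 0, and Rspo4 had 5 counts, all in wt 2. Within a library the ratio of Rspo3 to Rspo1 counts needs no scaling. It was 0.25, 0.339 and 0.436 in wt and 3.25, 2.81 and 2.19 in gld, so Rspo1 had more counts than Rspo3 in each wt library and fewer in each gld library. The difference was 3.03 on the log2 scale, and the exact permutation test (two-sided, 3 libraries a group) gave p = 0.1, the smallest it can give. This ratio and that of Wnt4 to Wnt5a were chosen after the counts were seen, and over both the adjusted p = 0.1.

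Lgr5, an R-spondin receptor gene and also a canonical target, rose together with Rspo3. Its level was 7.99, 5.69 and 7.06 CPM across the wt libraries against 196, 184 and 136 CPM across gld, a log2 fold change of 4.65 ± 0.25 (SE) and an edgeR adjusted p = 1.09e-08. As with Rspo3, gld 3 was the lowest of the gld libraries and every gld library lay far above wt. Of the 5 genes for R-spondin receptors and their ligases, 2 could be tested and 1, Lgr5, rose, beside 9.74% of all tested genes. Znrf3, a ligase that Lgr5 and R-spondins act on, stood at 5.64, 17.7 and 3.68 CPM in the wt libraries and at 6.74, 3.96 and 7.80 CPM in the gld libraries, which overlap, at −0.55 ± 0.70 (SE, edgeR adjusted p = 0.702). Lgr4 had 3 counts, all in wt 1, Lgr6 had 18 counts over all libraries, and Rnf43 was listed at 0. Lgr4 and Rnf43 have ends shared between transcripts, and Lgr6 does not. The macrophage list was highest in gld 3, where Rspo3, Lgr5 and Wnt4 were lowest among the gld libraries. From gld 1 to gld 2 the list went from 2306 to 3679 CPM and Rspo3 from 161 to 172 CPM. Lgr5 went from 196 to 184 CPM and Wnt4 from 28.9 to 18.5 CPM. The part of macrophage RNA in these levels was not tested.

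**Figure D2:**
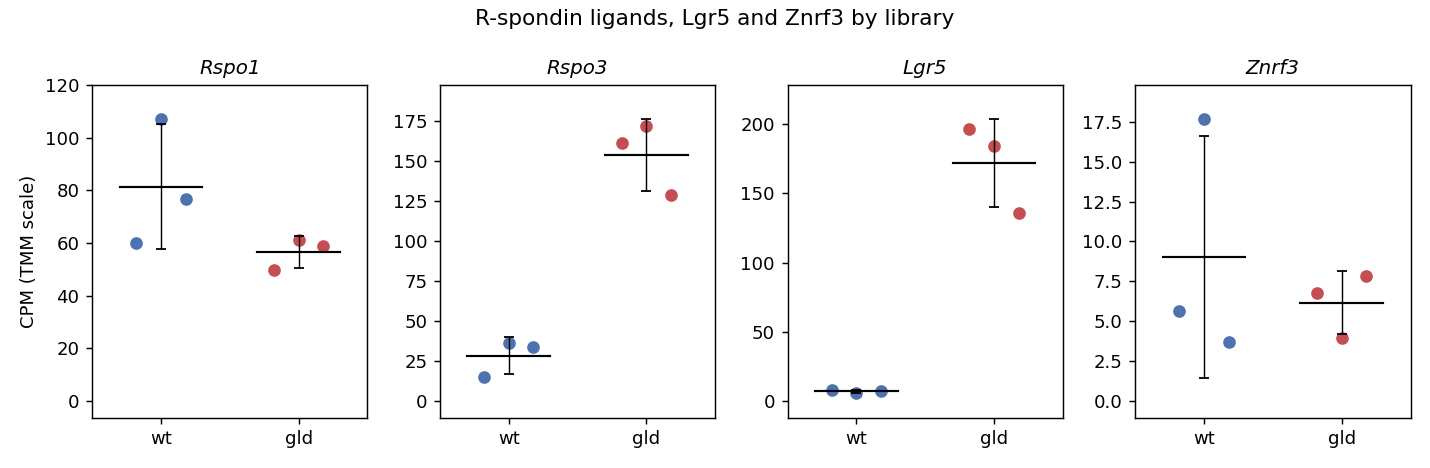
Level in CPM (TMM scale, linear axes of different range) of the R-spondin genes Rspo1 and Rspo3, the receptor gene Lgr5 and the ligase gene Znrf3. Points from left to right are replicates 1 to 3, lines are means and bars SD (n = 3). Rspo3 and Lgr5 separate the groups, and Rspo1 and Znrf3 do not pass the test.

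Wnt4, a ligand used in kidney, gonad and bone development, lies on GRCm38 chromosome 4 (137277489 to 137299726, plus strand) and has 1 annotated transcript. Its counts were 11, 9 and 14 for wt and 116, 70 and 59 for gld, or 5.17, 2.85 and 4.30 CPM against 28.9, 18.5 and 12.1 CPM. The groups did not overlap, but gld 1 was the highest and gld 3 the lowest of its group. The mean went from 4.10 ± 1.17 to 19.8 ± 8.50 CPM (SD, n = 3), a log2 fold change of 2.28 ± 0.53 (SE) with an edgeR adjusted p = 0.00715 and a 95% interval of 1.13 to 3.42. Without gld 1 the fold change was 1.88 and no longer passed (edgeR adjusted p = 0.0691), nor did it pass in limma-voom (adjusted p = 0.0555). Over all 13 other fits the adjusted p ran from 0.00287 to 0.0691.

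Wnt5a, on GRCm38 chromosome 14 (28504750 to 28527448, plus strand), was the most counted Wnt ligand gene in every library. Its counts were 201, 354 and 266 for wt and 444, 410 and 395 for gld, or 94.5, 112 and 81.7 CPM against 111, 108 and 81.1 CPM. The groups overlap almost fully, and the spread within each is wider than the difference of their means, 96.0 ± 15.2 and 99.99 ± 16.4 CPM (SD, n = 3). The log2 fold change was 0.06 ± 0.20 (SE, edgeR adjusted p = 0.91), with a 95% interval of −0.36 to 0.48.

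Wnt10b, a ligand that favours bone over fat formation, had no count in any wt library and 0, 20 and 24 in gld. Wnt11 had 15 counts in gld 1 and none elsewhere. Neither separates the groups, since each has at least 1 gld library at 0 like all of wt, and neither was tested. Without the low-count filter Wnt10b had an edgeR adjusted p = 0.0609 and Wnt11 an edgeR adjusted p = 0.405. Over the table, 3515 genes had 15 to 44 counts in all, the range of the untested genes of this set that had counts. Of these 84.1% were at 0 in some but not all libraries of a group, and 46.4% were at 0 in 3 libraries or more.

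Across the whole Wnt family of 19 genes, 10 had counts, 4 could be tested and 1, Wnt4, was called, beside 17.4% of all tested genes. Wnt16 and Wnt6, named after their values were seen, had log2 fold changes of 0.41 ± 0.36 and 1.35 ± 0.72 (SE), with edgeR adjusted p of 0.54 and 0.257. Wnt2b ran the other way, with 1, 8 and 21 counts for wt and none for gld, and was not tested. Wnt5a made up 72.6%, 74.1% and 68.9% of the counts of all Wnt ligand genes in wt and 56.0%, 66.6% and 54.0% in gld. The widest 95% Wilson interval of these shares, in wt 1, runs from 67.0% to 77.5% and covers counting error only. Wnt4 made up 3.97%, 1.88% and 3.63% in wt and 14.6%, 11.4% and 8.07% in gld, so the shares of both genes separate the groups. For Wnt5a the nearest libraries, wt 3 and gld 2, have overlapping intervals, 64.1% to 73.3% and 62.7% to 70.2%. Shares within a library depend on each other, so a higher share of other ligands lowers that of Wnt5a. The ratio of Wnt4 to Wnt5a counts was 0.0547, 0.0254 and 0.0526 in wt and 0.261, 0.171 and 0.149 in gld, a difference of 2.17 on the log2 scale (exact permutation test, two-sided, p = 0.1, the smallest possible).

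**Figure D3:**
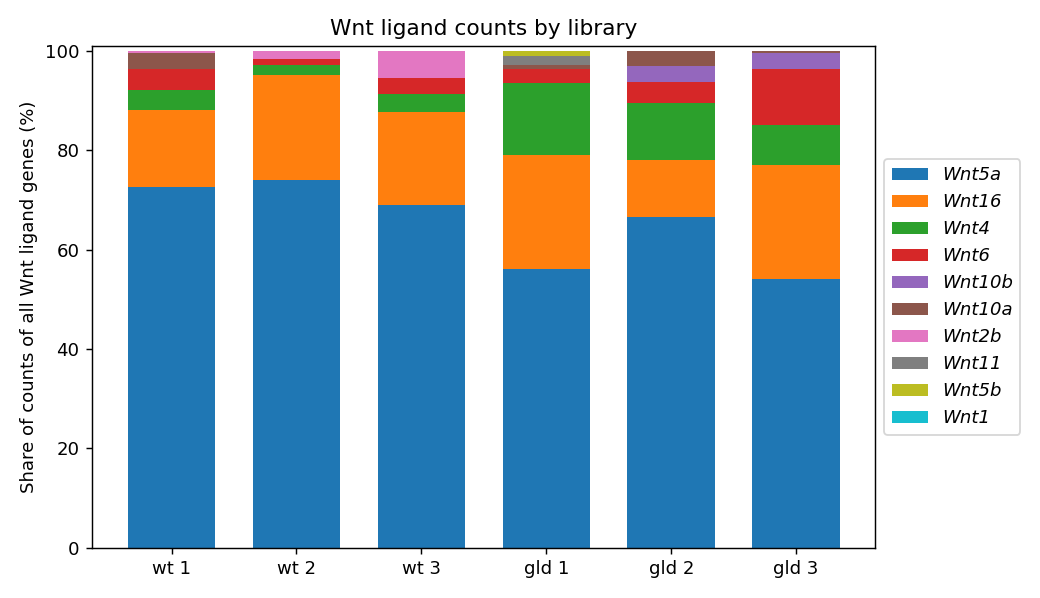
Share of the counts of all Wnt ligand genes taken by each ligand gene with counts, in %, for the 6 libraries. Wnt5a takes 68.9% to 74.1% in wt and 54.0% to 66.6% in gld, and Wnt4 1.88% to 3.97% in wt and 8.07% to 14.6% in gld.

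Wls, the gene of the Wnt carrier Wntless, rose from 327.5 ± 36.1 to 560 ± 33.9 CPM (SD, n = 3), a log2 fold change of 0.78 ± 0.12 (SE, edgeR adjusted p = 0.000386). Porcn, whose product attaches the lipid, was listed at 0 and has an end shared between transcripts. Of 16 receptor and co-receptor genes 10 could be tested, of which 4 rose and 1 fell, beside 9.74% and 7.69% of all tested genes. Their median log2 fold change was 0.39 against 0.02 over all tested genes. Fzd2 and Fzd1 rose by 0.84 ± 0.12 and 0.79 ± 0.13, and Fzd8 by 1.11 ± 0.26 (SE, largest edgeR adjusted p = 0.00662). Fzd9, a Frizzled gene with a role in bone formation, had no count in wt and 65, 96 and 105 in gld. It was at least 59.9-fold higher in gld, set against a floor of 3 counts over the wt group (edgeR adjusted p = 3.49e-05). Fzd9 passed the low-count filter through gld alone, so its direction among tested genes was fixed by it. Fzd7 fell by 0.64 ± 0.21 (SE, edgeR adjusted p = 0.0498), a call lost in 8 of 13 other fits. The co-receptor gene Lrp6 was at 0.17 ± 0.19 (edgeR adjusted p = 0.65), and Lrp5, whose end is shared between transcripts, had 1 count over all libraries.

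In the cytoplasm, 1 of 9 tested genes of 14 (11.1%) was called, beside 17.4% of all tested genes. Ctnnbip1, which encodes an inhibitor of β-catenin binding to TCF factors, went from 150 ± 12.3 to 285 ± 7.48 CPM (SD, n = 3), a rise of 0.92 ± 0.13 on the log2 scale (SE, edgeR adjusted p = 0.000153). The β-catenin gene Ctnnb1 had 1 to 76 counts per library, low for a widely expressed gene, and its last 300 exonic bases are shared between several of 15 annotated transcripts. Its log2 fold change was 0.88 ± 0.72 (SE, edgeR adjusted p = 0.505). Axin1, the constitutive relative of Axin2, was at 0.33 ± 0.19 (SE, edgeR adjusted p = 0.314).

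Among the nuclear effectors, Tcf7 (TCF1; GRCm38 chromosome 11, 52252371 to 52283014, minus strand) was counted 14, 30 and 25 times for wt and 32, 44 and 15 times for gld, or at 6.58, 9.48 and 7.68 CPM against 7.98, 11.6 and 3.08 CPM. Both the highest and the lowest library were gld. The log2 fold change was −0.08 ± 0.64 (SE, edgeR adjusted p = 0.968), and the 95% interval of −1.45 to 1.30 leaves room for a change of more than 2-fold either way. Lef1 (chromosome 3, 131110471 to 131224356) was listed at 0 in all 6 libraries. By counting error alone this allows up to 0.351 CPM over wt and 0.237 CPM over gld, but the end of Lef1 is shared by several of its 8 annotated transcripts. Among proteins of the same step, the TCF4 gene Tcf7l2 rose by 0.97 ± 0.28 and Pygo1, a β-catenin partner gene, by 1.70 ± 0.20 (SE, edgeR adjusted p of 0.0268 and 2.29e-05). Of 12 genes in that list 8 could be tested and these 2 were called, beside 17.4% of all tested genes. The Tcf7l2 call was lost in 4 of 13 other fits: library size alone, and without wt 3, gld 2 or gld 3.

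The feedback targets gave few counts. Axin2 (chromosome 11, 108920349 to 108950783, plus strand), a scaffold of the complex that degrades β-catenin, had 8 counts in wt 2, 12 in gld 2 and none in the other 4 libraries. Nkd1 (chromosome 8, 88521354 to 88594884, plus strand), which binds Dishevelled, had 9 in wt 2, 10 in gld 2 and 21 in gld 3. Each is present in 1 wt library and in 1 or 2 gld libraries, so no difference was detectable at these counts. Without the low-count filter, edgeR gave 0.31 (adjusted p = 0.967) for Axin2 and 1.27 (adjusted p = 0.717) for Nkd1. Both genes have an end shared between transcripts. Nkd2, the paralog of Nkd1 and better covered, stood at 185, 197 and 127 CPM in the wt libraries and at 147, 155 and 138 CPM in the gld libraries, at −0.21 ± 0.17 (SE, edgeR adjusted p = 0.518). Apcdd1, a membrane inhibitor and target, was at 0.25 ± 0.47 (SE, edgeR adjusted p = 0.811); both were named after their values were seen.

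Of 20 canonical targets, 8 could be tested, and 2 rose and none fell, beside 9.74% higher and 7.69% lower over all tested genes. The median log2 fold change was 0.09 against 0.02 over all tested genes. Those that rose were Lgr5 and Ccnd1, the cyclin D1 gene, which many growth signals induce. Ccnd1 went from 157, 185 and 223 CPM across wt to 822, 804 and 844 CPM across gld, a log2 fold change of 2.13 ± 0.14 (SE, edgeR adjusted p = 6.55e-08). Another 5 had counts but too few to be tested, and 7 of the 20 were listed at 0 in all 6 libraries, Lef1, Rnf43, Notum, Wif1, Myc, Cited1 and Prickle1. All 7 have ends shared between transcripts, as have 10 of the 20 targets. Over all 109 different genes of the pathway lists 44 have such ends, and of the 29 at 0 it is 20. Among the 9 Wnt ligand genes at 0 it is 3, and Rspo3, with 2182 counts, has a shared end too. The part of shared ends in these zeros was not tested.

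**Figure D4:**
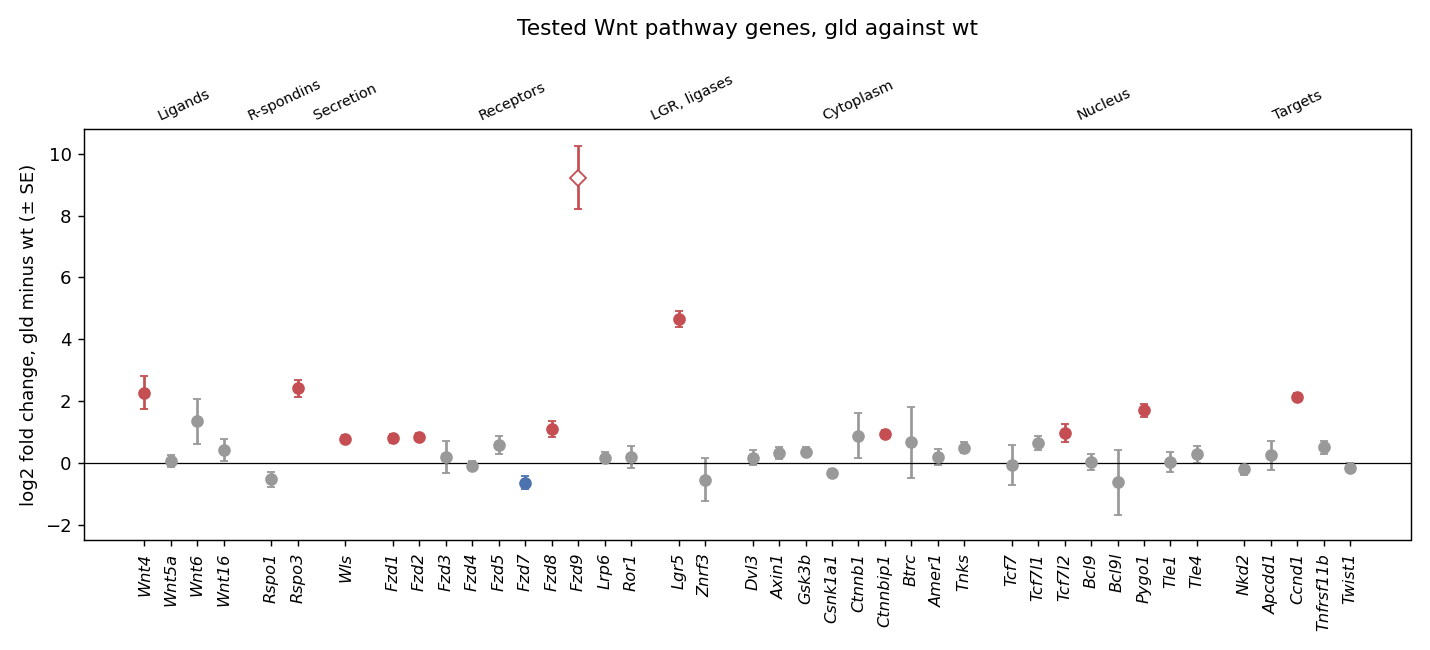
Log2 fold change, gld minus wt, with SE for each tested gene of the Wnt pathway lists other than the antagonist and planar polarity lists, ordered by role. Red is higher and blue lower at an edgeR adjusted p under 0.05, grey is not past it, and the open diamond is Fzd9, which had no count in wt and whose fitted value is no bound. Lgr5, Rspo3, Wnt4 and Ccnd1 are the 4 called genes with counts in wt that lie above 2.

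Beside the 10 genes, the pathway lists hold 84 different genes outside the antagonist list. Of these 40 could be tested, 10 (25%) rose and 1 (2.5%) fell, beside 9.74% and 7.69% of all tested genes, and the median log2 fold change was 0.34. Among the 10 is Fzd9, which passed the low-count filter through gld alone and so could only be called higher. Without TMM, with only library size as the scale, the median over all genes was −0.14 in place of 0.02. The calls over the table were then 720 higher and 975 lower in place of 847 and 668, and Rspo3, Wnt4, Lgr5 and Ccnd1 remained called and higher. Among the other 84 genes the same scale gave 9 higher and 3 lower. Of 11 osteoblast markers 5 were called higher and Alpl lower, and of 9 chondrocyte markers 4 were called higher, Sox9, Col11a2, Col9a2 and Acan. Phex, Ibsp, Dmp1, Acan, Col11a2 and Col9a2 passed the low-count filter through gld alone, so their direction among tested genes was fixed by it. The same holds for all macrophage genes called higher, C1qa, C1qb, C1qc and Marco among them, except Lyz2. The summed chondrocyte list was at 212 to 224 CPM for wt and 1036 to 1074 CPM for gld, most of it Sox9 (207 to 220 CPM for wt and 753 to 809 CPM for gld), while Col2a1 had 9 counts, all in gld 1. The part of these genes in the Wnt results was not tested.

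The antagonists, secreted proteins that bind Wnts or their co-receptors and the membrane proteins Kremen1 and Kremen2, were tested in the same fit. Of 15 genes 7 could be tested, 2 rose and 4 fell, beside 9.74% higher and 7.69% lower over all tested genes. Frzb fell by 3.96 ± 0.15 and Sfrp1 by 1.42 ± 0.09, and Sfrp2 rose by 2.04 ± 0.14 on the log2 scale (SE, largest edgeR adjusted p = 8.36e-08). Sfrp4 also rose, by 3.66, a call lost in limma-voom, and Dkk2 and Dkk3 fell by 2.77 and 0.96. With 4, 1 and 7 counts for wt, Sfrp4 passed the low-count filter through gld alone, so its direction among tested genes was fixed by it.

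Profiles were compared over the 6 libraries by the Euclidean distance between log2 CPM values centred on each gene's mean, for Wnt5a and Rspo3, the genes of the set with a mean scaled count of at least 50. The 3 genes nearest to Rspo3 were Klf2 (distance 0.155), Akap12 (0.371) and Plxna2 (0.672). Klf2, a transcription factor gene, stood at 35.2, 79.0 and 79.2 CPM across wt and at 351, 378 and 313 CPM across gld, with wt 1 lowest in wt and gld 3 lowest in gld as for Rspo3. The 3 nearest to Wnt5a were Kank2 (distance 0.106), Abce1 (0.14) and Sf3a3 (0.15), and none of these passed the test between groups. That outcome, and the library order that Klf2 shares with Rspo3, come with a choice by closeness and are no further result. These distances describe 6 libraries, and they share the group difference, the depth and the scaling.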

How the data were processed

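RNA was measured in 3 wt and 3 gld libraries, made with the QuantSeq 3′ mRNA-Seq FWD kit per the labels' protocols, which reads 1 tag near the 3′ end of a transcript whatever its length. Per the series' design text, reads were trimmed with Cutadapt and aligned with STAR. Trim Galore, FastQC, DESeq2 and the build mm10 stand in the submitters' processing notes. Which program counted the reads, on which strand and with which annotation is not stated there, so overlapping, antisense and near-identical genes are uncertain. The deposited table holds raw counts per gene, 57180 rows with an identifier. A further 1 row without one was left out, and 0 columns of samples were left unused.

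Symbols and GRCm38 positions came from GENCODE M21. A gene's end is called shared where under 99% of the last 300 exonic bases of its principal transcript lie in 1 annotated transcript. Genes were kept by filterByExpr (minimum count 10, total 15) and tested with edgeR 4.0.16 (R 4.3.3), TMM scaling and no covariate. The SE was taken as |log2 fold change| over √F, and intervals use the fit's degrees of freedom. Libraries of 1 group differed from each other by more than sampling noise. DESeq2 1.42.0 and limma-voom (limma 3.58.1) were alternatives, beside other scalings and filters, a replicate block, and leaving out each library. The scripts were checked on simulated counts. Floors are 3 counts over a group, and floors and intervals of counts cover counting error only, since no molecular identifiers are mentioned.

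The 10 genes, the gene lists and the tests were chosen with earlier results of these data known. All 10 are named. From each pathway list up to 6 called genes are named in order of adjusted p, and where none was called up to 2 with the highest levels. From cell type lists up to 4 called genes are named. Other genes are named as chosen after their values were seen or to account for untested genes of a list. Osteoclast (1 of 1 tested higher), glial (1 of 3 higher), adipocyte (1 of 1 lower), T cell (1 of 1 lower), endothelial (0 of 1 called) and B cell (none tested) lists were also counted. The T cell gene tested, Trbc2, passed the low-count filter through wt alone, so its direction among tested genes was fixed by it.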

Additional observations from a re-analysis of the deposited data

How the results depend on the processing

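Over 13 other fits, the number of the 10 genes called stayed at 2, with the exception of limma-voom, where Wnt4 was lost and it was 1. Leaving out 1 library gave 2 in each case, and Wnt10b took the place of Wnt4 without gld 1 (edgeR adjusted p = 0.0408), the gld library where Wnt10b is at 0. The number of called genes in the pathway lists, antagonists included, was 19, and 16 to 21 under other tests, scalings and filters and 17 to 20 without 1 library. Their split was 14 higher and 5 lower, and 13 higher and 8 lower with library size alone. Over all genes 1515 were called, 1359 to 1718 under other settings and 1224 to 1424 without 1 library. Values of genes that did not pass changed sign in some fits and stayed short of the threshold. Wnt5a was at −0.09 with library size alone, −0.05 without wt 3, −0.04 without gld 1 and −0.02 without gld 2. Tcf7 was at 0.08 without wt 2 and 0.28 without gld 3, Znrf3 at 0.41 without wt 2, Apcdd1 at −0.13 without gld 1 and Lrp6 at −0.01 without wt 3. Leaving out 1 library at a time, Wnt5a ran from −0.05 to 0.19, Tcf7 from −0.55 to 0.28, Znrf3 from −0.93 to 0.41, Apcdd1 from −0.13 to 0.42 and Lrp6 from −0.01 to 0.31. The cause was not tested. The groups share replicate numbers in the labels, but same-numbered libraries did not deviate together (r = −0.023, −0.015 and −0.023). The numbers were not used as pairs in the main test, though such values cannot show how the libraries were prepared. With a replicate block 1359 genes over the table, 2 of the 10 and 18 of the pathway lists were called. Axin2, Nkd1, Wnt10b and Wnt11 had 15 to 44 counts in all, too few for the test, and the parts of depth and of shared transcript ends in this were not tested.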

Other observations

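The planar polarity and β-catenin-independent Wnt list showed no called gene in edgeR. Of its 15 genes 4 could be tested and 0 passed, beside 17.4% of all tested genes, with a median log2 fold change of 0.17. Daam2, a formin gene, was at 63.9 ± 14.3 CPM in wt and 46.3 ± 10.3 in gld, and Vangl1, a membrane protein gene of planar polarity, at 22.2 ± 8.88 and 41.5 ± 5.11 CPM (SD, n = 3). Their log2 fold changes were −0.47 ± 0.25 and 0.88 ± 0.33 (SE), with edgeR adjusted p of 0.247 and 0.0872. The receptor tyrosine kinase gene Ror1, which binds Wnt5a and was chosen after its value was seen, was at 0.19 ± 0.35 (SE, edgeR adjusted p = 0.811).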
